A study of Mus musculus with 12 samples.

Results

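The tumor necrosis factor (TNF) superfamily ligands and their receptors were followed in GFP(+) liver cells through bile duct ligation (BDL), a surgical model of cholestasis. Members were all protein-coding genes whose symbol begins with Tnfsf or Tnfrsf, together with Tnf, Lta, Ltb, Ltbr, Fas, Fasl, Cd40, Cd40lg, Cd70 and Cd27. The expression table listed 37 of them among 16971 genes, 13 ligands and 24 receptors. Of these, 27 passed a filter of at least 10 normalized counts summed over the libraries, 9 ligands and 18 receptors. Lta, Cd40lg, Cd70, Tnfsf4 and Tnfsf15 were not analysed here.

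All mice were adults on a C57BL/6 background with the genotype Prom1CreERT2-nLacZ/+;Rosa26Lsl-GFP/+, and all received tamoxifen 7 days before surgery. In these mice the Prom1 locus drives the inducible Cre, so that cells expressing Prom1 (Prominin-1) at the time of tamoxifen, and their descendants, carry GFP. GFP(+) cells were sorted from the nonparenchymal fraction at day 0 (labelled sham), on BDL day 3 and on BDL day 14, and their mRNA was sequenced in bulk. The labels describe 12 libraries, and the group means of the table fitted 3 libraries for day 0, 3 for BDL day 3 and 4 for BDL day 14. The study counts the libraries of each group as mice, of both sexes in unequal shares, and the table does not allow the sexes to be set apart.

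The labelled cell type was checked against its markers. Summed over 8 markers of cholangiocytes and hepatic progenitors, the mean at day 0 was 524 normalized counts, with 202 on BDL day 3 and 829 on BDL day 14. Spp1, which macrophages can also express, made up 459, 175 and 792 of these, and Prom1 itself had means of 6.66, 0.956 and 1.76. Summed over 6 macrophage markers the means were 4695, 8689 and 13802, and over 5 Kupffer cell markers 9212, 20869 and 1278. Lyz2 alone made up 2280, 4560 and 11200 of the macrophage sum, and the other 5 markers summed to 2415, 4129 and 2602. The macrophage sum was thus above the progenitor sum in each group, with or without Lyz2, as was the Kupffer cell sum, which came nearest to it on BDL day 14. The cells are called GFP(+) cells here. In a bulk library, a lower value through fewer cells of a type and one through less RNA per cell cannot be told apart.

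TNF superfamily ligands are mostly membrane proteins that act as trimers, either on the cell surface or after release by a protease. Their receptors fall into those with a death domain, such as Tnfrsf1a and Fas, which can start apoptosis or necroptosis, those that bind TRAF adaptors and switch on NF-kB, such as Tnfrsf1b, Ltbr and Cd40, and decoys without a signalling tail, such as Tnfrsf23. In liver the family is known for hepatocyte death through TNF and Fas, for proliferation of progenitor cells through Tnfsf12 (TWEAK) and Tnfrsf12a (Fn14), and for B cell survival through Tnfsf13 (APRIL) and Tnfsf13b (BAFF).

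The table gives each gene's group means, its mean and geometric mean over all libraries and its highest library, without naming that library. The spread between libraries of a group was therefore recovered per gene from the gap between the group means and the geometric mean, and log2 ratios of group means were tested with limma's moderated test on that spread, adjusted over 12891 genes (Benjamini-Hochberg). Every value called a level below is a group mean in normalized counts, every fold or log2 ratio is a ratio of group means, and ± gives the SE of the log2 ratio. The comparisons of BDL day 3 and of BDL day 14 with day 0 share the day 0 libraries.

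By that test 3 of the 27 members passed an adjusted p of 0.05 on BDL day 3 against day 0, 2 higher and 1 lower, where 9.16% of all genes passed (3.34% higher and 5.82% lower). On BDL day 14 against day 0, 2 members were higher and 4 lower, where 15.2% of all genes passed (6.04% higher and 9.14% lower). The 2 higher were Tnfsf13 and Tnfsfm13, which share exon bases and are not independent. On BDL day 14 against BDL day 3, 2 members were higher and 0 lower, where 8.15% of all genes passed (4.2% higher and 3.95% lower). Of the members called lower, Cd27, Tnfrsf13c and Tnfrsf18 met the filter only through their day 0 levels, which favours calls of a fall. At an unadjusted p under 0.05 the members numbered 13, 11 and 6 in the 3 comparisons, against 24.6%, 28.4% and 20.5% of all genes.

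By size alone, more members than that stood past a 2-fold ratio. In the comparison of BDL day 3 with day 0, 6 members were past it upward and 9 downward, against 7.45% and 20.7% of all genes (28.2% either way). For BDL day 14 against day 0 the numbers were 6 and 6, against 9.77% and 19.6% (29.3% either way), and for BDL day 14 against BDL day 3 they were 4 and 4, against 13.1% and 10.1% (23.2% either way). Among these, Cd27, Tnfrsf13c, Tnfrsf18 and Tnfrsf19 would have missed the filter without day 0, Tnfsf13b and Tnfrsf9 without BDL day 14, and Tnfsf9 without either. This favours ratios away from the group that let them in. At a mean of at least 10, the members past 2-fold either way numbered 7, 4 and 5. The median log2 ratio of the members was 0.24, 0.29 and 0.06 in the 3 comparisons, beside -0.02, -0.04 and -0.00 over all genes.

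**Figure D1:**
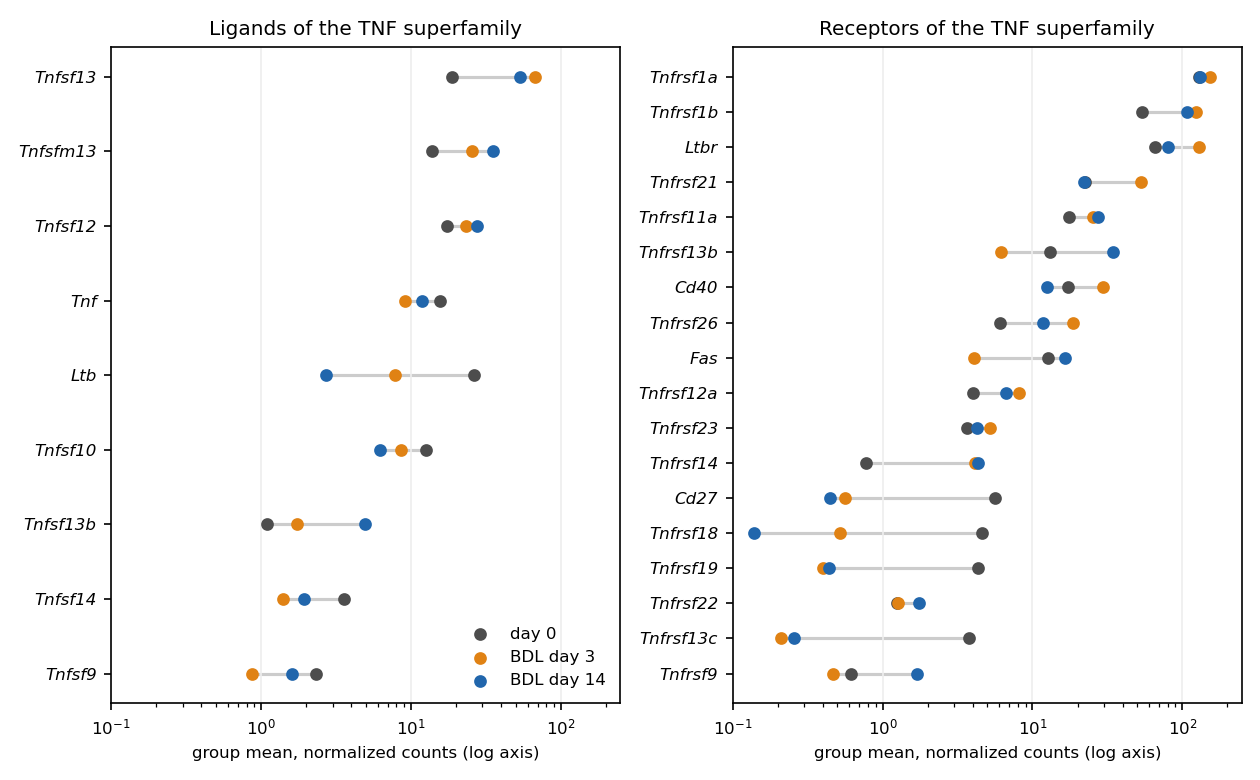
Group means in normalized counts on a log axis for the 9 ligands (left) and 18 receptors (right) that passed the filter, ordered by their mean over all libraries. Points are the means of day 0 (3 libraries), BDL day 3 (3) and BDL day 14 (4), and the grey line joins the lowest and the highest mean. Tnfrsf1a, Tnfrsf1b and Ltbr lead the receptors and Tnfsf13 the ligands.

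Among the members with a call, 3 stretches of upstream sequence are shown, for the gene with the steepest fall among the ligands (Ltb), for the locus that rose on BDL day 14 (Tnfsfm13) and for Fas, a receptor that differed between BDL day 3 and BDL day 14. They are RefSeq windows on GRCm38.p6, read 5′ to 3′ on the strand of the gene, running up to 250 bases before the annotated start and ended where an annotated exon begins. Capitals mark matches to the motifs named after them.

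Ltb, chr17:35194257-35194438, plus strand: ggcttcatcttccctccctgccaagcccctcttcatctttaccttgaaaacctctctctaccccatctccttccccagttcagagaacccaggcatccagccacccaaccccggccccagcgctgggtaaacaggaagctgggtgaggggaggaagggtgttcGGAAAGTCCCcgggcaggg

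Tnfsfm13, chr11:69696099-69696348, minus strand: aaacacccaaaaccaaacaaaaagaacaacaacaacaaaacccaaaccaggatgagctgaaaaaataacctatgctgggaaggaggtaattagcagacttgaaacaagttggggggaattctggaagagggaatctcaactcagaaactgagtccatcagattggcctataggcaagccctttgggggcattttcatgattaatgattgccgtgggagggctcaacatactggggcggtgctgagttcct

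Fas, chr19:34290409-34290658, plus strand: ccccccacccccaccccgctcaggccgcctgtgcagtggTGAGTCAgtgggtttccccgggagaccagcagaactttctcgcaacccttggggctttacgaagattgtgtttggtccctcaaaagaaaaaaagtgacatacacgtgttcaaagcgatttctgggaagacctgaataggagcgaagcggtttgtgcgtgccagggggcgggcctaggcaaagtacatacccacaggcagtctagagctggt

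The motifs were searched on both strands, and overlapping matches were counted once per window. They were the NF-kB consensus, AP-1 (TGANTCA), PU.1 (GAGGAAGT), the antioxidant response element (TGACNNNGC) and the interferon-stimulated response element. The Ltb stretch held the NF-kB match GGAAAGTCCC on the minus strand, its first base 19 bases back from the end of the stretch and 87 before the RefSeq start, which lies 68 exon bases further on. The Fas stretch held the AP-1 match TGAGTCA, 211 bases before the RefSeq start, and the Tnfsfm13 stretch held none of the 5 motifs. A window was found for 30 of the 37 members, 22 of them past the filter, and for 4 of these more than 1 window. The NF-kB consensus was in 3 of the 34 member windows (Ltb, Tnfrsf8 and Tnfrsf9), beside 3.9% of all 32851 windows. AP-1 was in 6 member windows, those of Fas, Tnfsf13, Tnfsf13b, Tnfsf14, Tnfrsf8 and Tnfrsf9, beside 6.75% of all. The interferon-stimulated element was in 4 (Tnfrsf14, Tnfrsf17, Tnfrsf1b and Tnfsf13b) beside 2.98%, the antioxidant element in 5 beside 10.2%, and PU.1 in 1 beside 2.44%. These matches describe letters in a window and were tied to no binding here.

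Tnfsf13, the ligand APRIL that sustains plasma cells, rose on both days. Its level was 18.7 at day 0, 67.2 on BDL day 3 and 53.8 on BDL day 14, and its highest library held 84.2 normalized counts, more than the 3 day 0 libraries held together. It was 3.59-fold higher on BDL day 3 (log2 ratio 1.85 ± 0.37, adjusted p = 0.00835 by limma's moderated test) and 2.88-fold higher on BDL day 14 (1.52 ± 0.34, adjusted p = 0.00938). The BDL days did not differ past the threshold (-0.32 ± 0.34, adjusted p = 0.692).

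Tnfsf13 stands on chromosome 11 (69682846 to 69685784, minus strand) next to Tnfsf12 (69686250 to 69695849), and the read-through gene Tnfsfm13 (69682577 to 69696098) spans both. Tnfsfm13 rose on BDL day 14, from 13.8 at day 0 to 25.4 on BDL day 3 and 35.5 on BDL day 14 (2.57-fold, log2 ratio 1.36 ± 0.36, adjusted p = 0.0203), while BDL day 3 missed the threshold (0.88 ± 0.38, adjusted p = 0.171). Tnfsf12, the ligand TWEAK, had levels of 17.5, 23.4 and 27.5, with log2 ratios to day 0 of 0.42 ± 0.50 (adjusted p = 0.670) and 0.65 ± 0.47 (adjusted p = 0.398). In GENCODE M21, Tnfsfm13 shares 983 exon bases with Tnfsf13, which is 60.0% of Tnfsf13's exon bases, and 731 with Tnfsf12, which is 48.3% of Tnfsf12's. Tnfsf13 also shares 221 exon bases with the antisense gene Tnfsf13os. How reads in shared exons were divided is not given in the sources used here, so the values of these 3 genes are not independent of each other.

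Ltb, the lymphotoxin beta chain that lymphocytes present to Ltbr, fell on BDL day 14. Its level was 26.2 at day 0, 7.86 on BDL day 3 and 2.71 on BDL day 14, a 9.67-fold fall (log2 ratio -3.27 ± 0.61, adjusted p = 0.00301 by limma's moderated test). Its log2 ratio on BDL day 3 was -1.74 ± 0.65 (adjusted p = 0.116). One day 0 library held 55.9 of the normalized counts, 71.1% of that group's sum, and the other two averaged 11.35. Without that library the fall on BDL day 14 was 4.19-fold and still passed (adjusted p = 0.0257, log2 ratio -2.07).

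Tnf, the cytokine that names the family, lies beside Ltb within a stretch of 7.57 kb on chromosome 17. Its levels were 15.7, 9.11 and 11.9, with log2 ratios to day 0 of -0.79 ± 0.48 and -0.40 ± 0.45 (adjusted p = 0.348 and 0.613). Tnfsf10, the death ligand TRAIL, had levels of 12.7, 8.54 and 6.18, and its ratio on BDL day 14 (-1.04 ± 0.40) had an adjusted p of 0.105. For both genes, the highest library could have been in any of the groups.

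The other ligands were low. Tnfsf13b, the ligand BAFF, had levels of 1.09, 1.75 and 4.92, a 4.51-fold ratio on BDL day 14 whose error was wide (2.17 ± 1.27, adjusted p = 0.289). One BDL day 14 library held 8.01 normalized counts of it, 40.7% of that group's sum. Tnfsf14, the ligand LIGHT, had levels of 3.56, 1.41 and 1.94, and Tnfsf9, the ligand of the T cell costimulator Tnfrsf9, had 2.32, 0.877 and 1.62. Their ratios to day 0 ran from -1.40 ± 1.47 to -0.52 ± 1.37 with no adjusted p under 0.475. Fasl, Tnfsf8, Tnfsf11 and Tnfsf18 did not pass the filter. Fasl, the ligand of Fas, had levels of 2.10, 0.989 and 0.131, and 88.1% of its day 0 sum came from 1 library of 5.55 normalized counts.

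Expressed per kilobase of exon, so that genes can be set beside each other, Ltb led the ligands at day 0 with 17.3 normalized counts per kb, ahead of Tnfsf12 (11.6), Tnfsf13 (11.4) and Tnf (9.58). That lead rested on 1 library, without which Ltb stood at 7.49 per kb, below these 3. On BDL day 3 Tnfsf13 led with 41.1 per kb, 50.1% of the summed level of the 9 ligands, and Ltb stood at 5.18. On BDL day 14 Tnfsf13 stood at 32.9 (41.0% of the sum), Tnfsf12 at 18.2, Tnfsfm13 at 15.9, Tnf at 7.26 and Ltb at 1.79. Tnfsf13, Tnfsf12 and Tnfsfm13 share exon bases, so their shares of the sum are not independent. The order is a description, and neighbours in it were not tested against each other.

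Tnfrsf1a, the death domain receptor for TNF that most cells carry, was the most abundant receptor in each group, at 50.2, 59.1 and 50.6 normalized counts per kb. Its levels of 130, 153 and 131 normalized counts differed little, with log2 ratios to day 0 of 0.24 ± 0.34 (adjusted p = 0.730) and 0.01 ± 0.31 (adjusted p = 0.987). Both ratios turned slightly negative under quantile normalization (-0.08 and -0.12). Fas, the receptor of Fas ligand, was 12.6 at day 0, 4.10 on BDL day 3 and 16.4 on BDL day 14. It was 4.00-fold higher on BDL day 14 than on BDL day 3 (log2 ratio 2.00 ± 0.45, adjusted p = 0.0153 by limma's moderated test). Its lower level on BDL day 3 than at day 0 just missed the threshold (-1.62 ± 0.48, adjusted p = 0.0519). Tnfrsf21 (death receptor 6) stood at 22.3, 53.3 and 22.2, with adjusted p of 0.0709 for the ratio to day 0 on BDL day 3 (1.26 ± 0.41) and 0.0586 between the BDL days (-1.26 ± 0.38). Tnfrsf10b, the mouse TRAIL receptor, and Tnfrsf25 did not pass the filter, with levels of at most 1.39 and 1.48.

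Among the TRAF-binding receptors, Ltbr, which answers to Ltb and Tnfsf14, had levels of 65.4, 129 and 80.1. It rose 1.97-fold on BDL day 3 (log2 ratio 0.98 ± 0.29, adjusted p = 0.0499 by limma's moderated test), and the adjusted p ran from 0.0445 to 0.133 under other settings, so that this call rests on the threshold. On BDL day 14 it was 0.29 ± 0.27 from day 0 (adjusted p = 0.527). Tnfrsf1b, the other TNF receptor, stood at 54.0, 123 and 107, which is 2.28-fold and 1.98-fold over day 0 (1.19 ± 0.39 and 0.99 ± 0.36), with adjusted p of 0.0735 and 0.0865. These 2 receptors and Tnfrsf1a made up 70.6%, 76.3% and 70.8% of the summed per-kb level of the 18 receptors at day 0, BDL day 3 and BDL day 14.

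Tnfrsf13b, the receptor TACI that binds both Tnfsf13 and Tnfsf13b, had levels of 13, 6.20 and 34.4. It was 5.55-fold higher on BDL day 14 than on BDL day 3 (log2 ratio 2.47 ± 0.64, adjusted p = 0.0301 by limma's moderated test), and its ratio to day 0 on BDL day 14 was 1.40 ± 0.64 (adjusted p = 0.167). One BDL day 14 library held 52.2 of its normalized counts, and the other 3 averaged 28.5. Without that library the adjusted p between the BDL days was 0.0743 (log2 ratio 2.20), and without a trend of spread on mean it was 0.0876. Tnfrsf13c, the BAFF receptor that B cells depend on, went the other way, from 3.79 at day 0 to 0.210 and 0.258. It met the filter only through its day 0 level, which favours a call of a fall. Its BDL day 3 mean lay under the lowest level that the table resolves (0.292), which makes it at least 13-fold lower there. The adjusted p on that day (0.0432 by limma's moderated test) belongs to the mean as given (log2 ratio -4.17 ± 1.18), not to that bound. On BDL day 14 Tnfrsf13c was 14.7-fold lower (-3.88 ± 1.11, adjusted p = 0.0311). One day 0 library held 7.87 normalized counts of it, 69.2% of the group's sum, and without it both calls were lost (adjusted p = 0.179 and 0.176), with levels at least 6.00-fold lower on BDL day 3 and 6.78-fold lower on BDL day 14.

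Cd27 and Tnfrsf18 (GITR), costimulatory receptors of T cells, were called lower on BDL day 14 than at day 0. Both met the filter only through their day 0 levels, which favours calls of a fall. Cd27 had levels of 5.62, 0.559 and 0.447 (log2 ratio on BDL day 14 -3.65 ± 1.15, adjusted p = 0.0468 by limma's moderated test), and 1 day 0 library held 65.2% of its day 0 sum. Without that library the log2 ratio was -2.71 and the adjusted p 0.209. Tnfrsf18 had levels of 4.64, 0.517 and 0.138, the last of them under the lowest level resolved (0.244), so that it was at least 19.0-fold lower on BDL day 14. Its adjusted p of 0.00608 (limma's moderated test) belongs to the means as given (log2 ratio -5.07 ± 1.06), not to that bound. One day 0 library held 10.1 of its normalized counts, 72.6% of the sum, and without it the level was at least 7.83-fold lower. The adjusted p without that library, 0.0498, likewise used the BDL day 14 mean as given. In GENCODE M21, 27.2% of the exon bases of Tnfrsf18 lie opposite Gm16008, and no source used here says whether counting used strand. Tnfrsf4 (OX40), next to Tnfrsf18 on chromosome 4, did not pass the filter, with levels of 2.05, 0.331 and 0.136.

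Of the remaining receptors none had a call in the fit reported here. Tnfrsf14 (HVEM), a receptor of Tnfsf14, stood at 0.770, 4.14 and 4.31, ratios of 5.38-fold and 5.60-fold to day 0 with adjusted p of 0.103 and 0.0571. Under quantile normalization its log2 ratios were 3.80 and 3.75, and both passed (adjusted p = 0.0221 and 0.00757 by limma's moderated test). Tnfrsf26 stood at 6.10, 18.6 and 11.7 (1.61 ± 0.51 on BDL day 3, adjusted p = 0.0690), and passed on BDL day 3 under quantile normalization (adjusted p = 0.0398). Tnfrsf12a, the TWEAK receptor Fn14, had levels of 4.04, 8.12 and 6.69, with log2 ratios to day 0 of 1.01 ± 0.58 (adjusted p = 0.316) and 0.73 ± 0.54 (adjusted p = 0.416). Tnfrsf11a, the receptor RANK, had 17.5, 25.3 and 27.5, and Cd40, the receptor through which T cells license antigen-presenting cells, had 17.3, 29.6 and 12.5 (-1.24 ± 0.56 between the BDL days, adjusted p = 0.232). Tnfrsf19 had levels of 4.32, 0.401 and 0.442, with adjusted p of 0.0900 and 0.0632 against day 0. The decoy receptors Tnfrsf22 and Tnfrsf23 kept to 1.25 to 1.76 and 3.66 to 5.17 normalized counts. Tnfrsf9 (4-1BB) had levels of 0.615, 0.469 and 1.70, and 86.6% of its BDL day 14 sum came from 1 library of 5.89 normalized counts. Its log2 ratio to day 0 on BDL day 14 was 1.47 ± 1.54 with that library and -1.02 without it. The filtered-out receptors Tnfrsf8, Tnfrsf17 and Tnfrsf11b had means of at most 1.54.

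**Figure D2:**
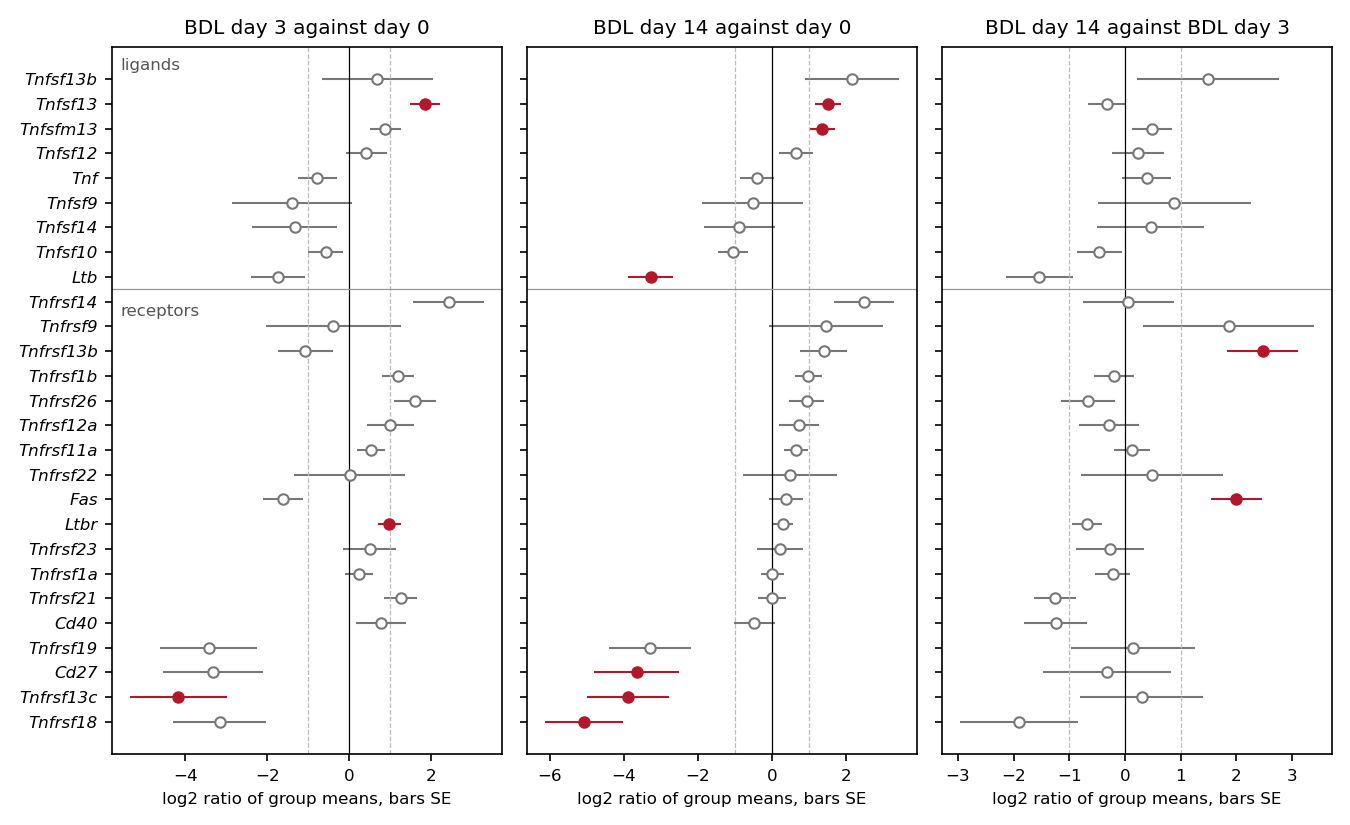
Log2 ratios of group means for the 27 members in the 3 comparisons, each panel with its own axis range, with bars for the SE from the recovered spread (7 residual degrees of freedom, moderated). Red points passed an adjusted p of 0.05, open points did not, and dashed lines mark a 2-fold ratio. Tnfsf13 is red in both comparisons with day 0, and Fas and Tnfrsf13b between the BDL days.

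Ligands and receptors that bind each other moved unequally. Set per kilobase of exon, Ltbr stood at 1.61 times Ltb at day 0, 10.6 times on BDL day 3 and 19.0 times on BDL day 14. Without the day 0 library that held most of Ltb, the day 0 ratio was 3.71. The ratio of Tnfrsf1b to Tnf was 1.48, 5.80 and 3.86, and that of Tnfrsf1a to Tnf was 5.24, 10.6 and 6.96. Tnfrsf13b stood at 0.401, 0.0533 and 0.369 times Tnfsf13, lowest on BDL day 3, when the ligand was high and the receptor low. Tnfrsf12a stood at 0.181, 0.272 and 0.191 times Tnfsf12. Of 27 known pairs, 12 had both genes past the filter, and their ratios are given with no test.

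Several members lie side by side in the genome, and neighbours did not share calls throughout. Within gaps of at most 150 kb, 17 members formed 7 clusters. In the cluster of Cd27, Ltbr and Tnfrsf1a on chromosome 6 (125232622 to 125362484), Cd27 fell on BDL day 14, Ltbr rose on BDL day 3 and Tnfrsf1a passed in neither. In the Ltb and Tnf cluster on chromosome 17, Ltb had a call and Tnf had none. On chromosome 7, Tnfrsf26, Tnfrsf22 and Tnfrsf23 lie within 78.2 kb, and none of them had a call.

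The members called lower are known from lymphocytes, and markers of these cells also fell, as did those of mesenchymal cells, hepatocytes and neutrophils. Against day 0, the log2 ratios of the summed lists on BDL day 14 were -3.04 for T cells, -3.01 for B cells and -3.48 for NK cells. They were -3.18 for mesenchymal cells, -3.14 for hepatocytes and -1.89 for neutrophils, so the fall was not particular to lymphocyte markers. Summed over 6 T cell markers (Cd3e, Cd3d, Cd3g, Cd4, Cd8a and Lck) the mean was 87.0 at day 0, 32.8 on BDL day 3 and 10.6 on BDL day 14, and 4 of the 6 fell on BDL day 14. Over 4 B cell markers (Cd79a, Cd79b, Ms4a1 and Pax5) it was 170.0, 49.7 and 21.1, and all 4 fell on BDL day 14, Pax5 to under the lowest level resolved. Over 4 NK cell markers it was 74.0, 21.2 and 6.63, with 3 lower on BDL day 14 and Ncr1 under the lowest level resolved. Of the markers called lower, Cd3e, Cd8a, Pax5 and Ncr1 met the filter only through their day 0 levels. The same held for Cd27, Tnfrsf13c and Tnfrsf18, and it favours calls of a fall. For Ltb, Cd27, Tnfrsf13c and Tnfrsf18, 1 day 0 library held 71.1%, 65.2%, 69.2% and 72.6% of the day 0 sum. Whether it was the same library for each gene is not known. The marker sums are given with all libraries and were not recomputed without the highest. The part of lymphocytes in the fall of these members was not tested.

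The myeloid markers moved in several directions. Over 5 markers of monocyte-derived cells (Ly6c2, Ccr2, Cx3cr1, Chil3 and F13a1) the mean was 73.6, 143 and 1645, and 4 of the 5 rose on BDL day 14 both from day 0 and from BDL day 3. All 5 Kupffer cell markers fell on BDL day 14, Clec4f from 4610 at day 0 and 6890 on BDL day 3 to 185. Of the 6 macrophage markers, Lyz2 rose on BDL day 14 from day 0, and no other had a call against day 0. Tnfsf13 rose on both BDL days, while Fas and Tnfrsf13b stood higher on BDL day 14 than on BDL day 3, and the part of the myeloid cells in these changes was not tested. The other lists went from 466 to 208 and 126 for neutrophils, from 24.8 to 9.03 and 21.1 for dendritic cells (5 of 6 markers listed), from 641 to 492 and 498 for endothelial cells, from 377 to 11.5 and 41.6 for mesenchymal cells and from 3032 to 823 and 343 for hepatocytes.

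**Figure D3:**
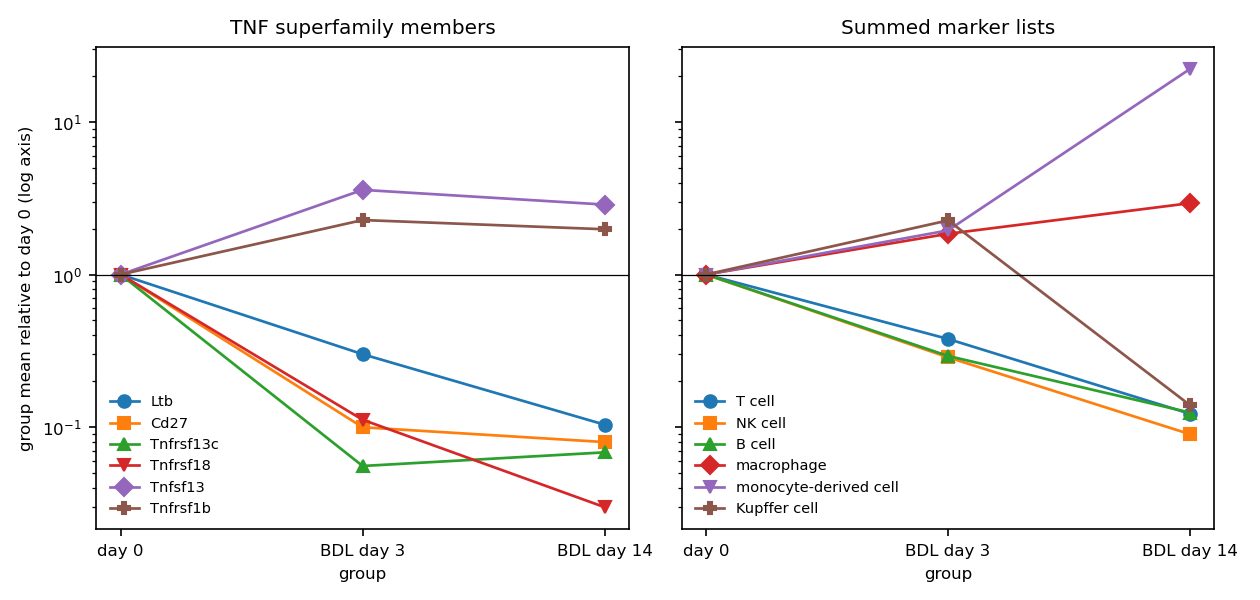
Group means relative to day 0 on a log axis for 6 members (left) and for 6 summed marker lists (right). Ltb, Cd27, Tnfrsf13c and Tnfrsf18 lie below 1 on both BDL days, as do the T cell, NK cell and B cell lists, while Tnfsf13 and Tnfrsf1b lie above 1. For each of Ltb, Cd27, Tnfrsf13c and Tnfrsf18, 1 day 0 library held 65.2% to 72.6% of the day 0 sum, and whether it was the same library is not known. Tnfrsf1b passed the test on neither day.

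The signalling genes downstream were followed in a list of 53 genes, of which 52 were listed and 48 passed the filter. It held sheddases, TRAF adaptors, death domain proteins, kinases and ubiquitin ligases of the TNF receptor complex, NF-kB subunits and their feedback inhibitors. On BDL day 3 against day 0, 0 of the 48 passed limma's moderated test, where 9.16% of all genes did. Of the 48, 5 (10.4%) had an unadjusted p under 0.05, against 24.6% of all genes, and 6 (12.5%) were past 2-fold, against 28.2%. On BDL day 14 against day 0, 3 were higher and 3 lower, and between the BDL days 0 were higher and 2 lower, beside 6.04% and 9.14% and then 4.2% and 3.95% of all genes. An unadjusted p under 0.05 was found for 14 and 10 of the 48 (29.2% and 20.8%), close to the 28.4% and 20.5% of all genes. With a mean of at least 10, the log2 ratios on BDL day 3 were led by Relt, a relative of the receptors outside the naming rule (1.82 ± 0.55, adjusted p = 0.0548), and Ripk3 (1.03 ± 0.38, adjusted p = 0.113). The lowest were those of Tnfaip3 (-1.57 ± 0.51), the TRAF-bound ubiquitin ligase Birc2 (-0.87 ± 0.39) and Rnf31 (-0.59 ± 0.45). The median log2 ratio of the list was 0.11, -0.22 and -0.18 in the 3 comparisons.

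The adaptor Traf6, a ubiquitin ligase used by Cd40 and Tnfrsf11a, rose from 10.5 at day 0 to 38.6 on BDL day 14 (log2 ratio 1.88 ± 0.37, adjusted p = 0.00449), and its ratio between the BDL days was 1.28 ± 0.37 (adjusted p = 0.0522). Relt stood at 5.56, 19.6 and 16.1 (1.53 ± 0.51 on BDL day 14, adjusted p = 0.0611). Bid, which links caspase-8 to mitochondria, rose from 7.11 to 20.2 (1.51 ± 0.37, adjusted p = 0.0158). The sheddase Adam10 rose from 70.3 to 143 (1.02 ± 0.24, adjusted p = 0.0126), whereas Adam17, which releases TNF from the membrane, had levels of 66.3, 67.9 and 56.4.

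Rnf31, the catalytic subunit of the linear ubiquitin ligase, fell from 37.9 to 9.55 on BDL day 14 (-1.99 ± 0.42, adjusted p = 0.00619), whereas its partners Rbck1 and Sharpin had ratios of 0.20 ± 0.28 and -0.16 ± 0.27. Cflar, an inhibitor of caspase-8, fell from 54.3 to 32.1 (-0.76 ± 0.24, adjusted p = 0.0445). Ripk3, the kinase of necroptosis, had levels of 45.3, 92.2 and 17.0 and was lower on BDL day 14 than at day 0 (-1.41 ± 0.36, adjusted p = 0.0171) and than on BDL day 3 (-2.44 ± 0.36, adjusted p = 0.00105). Mlkl, the substrate of Ripk3, was also lower on BDL day 14 than on BDL day 3, 14.9 against 37.3 (-1.32 ± 0.34, adjusted p = 0.0314).

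None of the 5 NF-kB subunits had a call in any of the 3 comparisons. Nfkb2, of the alternative pathway downstream of Ltbr, had levels of 28.3, 21 and 11.1 (-1.35 ± 0.43 on BDL day 14, adjusted p = 0.0514), and Rela had 31.1, 29.6 and 32.1. Of the feedback inhibitors, Tnfaip3 (A20), a target of NF-kB, had levels of 57.9, 19.5 and 20.8, with adjusted p of 0.0727 and 0.0530 against day 0. Nfkbia had levels of 182, 177 and 134.

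**Figure D4:**
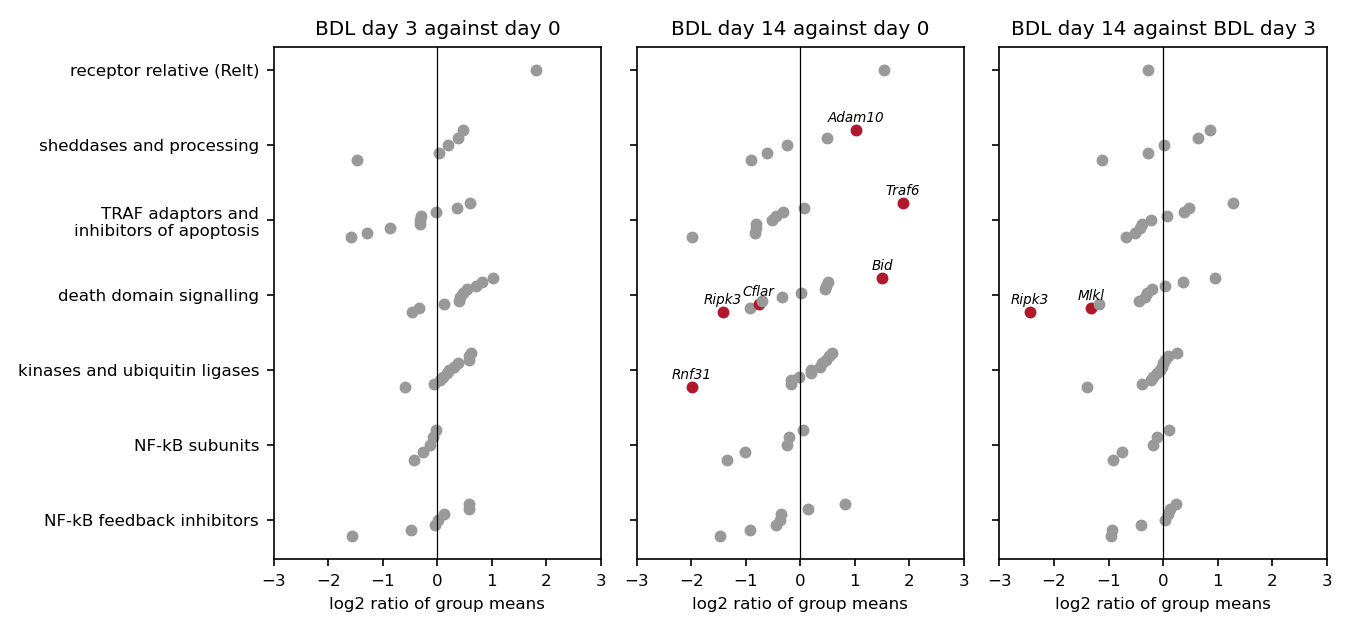
Log2 ratios of group means for the 48 signalling genes past the filter, in rows by function, with points in a row set apart vertically only so that they can be told apart. Red points, with gene names, passed an adjusted p of 0.05. No point is red on BDL day 3 against day 0, and Ripk3 is red and below 0 in both comparisons of BDL day 14.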

How the data were processed

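GFP(+) cells were sorted from mouse liver and their mRNA sequenced. The authors trimmed the reads, aligned them with STAR (2.6.1d in the submitters' processing notes) to mm10 and scaled the counts with the upper quartile method in Partek. For each gene, the deposited signal values are the least squares means that the authors computed per group from normalized counts, with the mean, geometric mean and highest library over 10 libraries. It has 0 columns of values per library, so the depth per library is unknown and no interval for counting error is given. The group sizes of 3, 3 and 4 were found by fitting the group means to the mean over all libraries (99th percentile of the deviation 0.469%, against 4.93% for the nearest other sizes). Its other columns hold the authors' own p-values, FDR and ratios and were not used.

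Genes with at least 10 summed normalized counts were kept, 12891 of 16971. The planned comparison was a 2-fold ratio of group means with no test, and a test was added after the table's columns were seen. The weighted mean of the log group means minus the log of the geometric mean gives each gene's spread within groups (7 degrees of freedom), under the assumption of a like log-scale spread in the groups. This is less exact at low means and where the spread is wide. The paper describes replicates of BDL day 14 as varying more than those of day 0, and 1 spread per gene does not allow for that. The sum came out below zero for 5 genes. The spread was moderated with limma 3.58.1 (R 4.3.3) with a trend on the mean, and two-sided p-values were adjusted by Benjamini-Hochberg over all genes kept. The steps were tested on simulated log-normal values with the same spread in every group, which could not check the case of unequal spread. The lowest level resolved in a group was set at 4 times the group's lowest mean (0.512, 0.292 and 0.244), and a fold against it is a bound. The test used all means as given, also those under that level. The highest library was assigned to a group only where no other group's sum could hold it. Coordinates and exon lengths come from GENCODE M21 (GRCm38), where 99.9% of the 16950 symbols found had the table's start and end. Values are given for members with a group mean of at least 10, for Tnfsf12 and Tnfrsf12a, and for the 5 largest ratios each way. Of the signalling list, up to 3 genes each way with a mean of at least 10 were planned, and other genes named there were chosen after their values were seen, as were the genes whose upstream sequence is shown. A marker and a signalling gene of the lists are not reported here, and the marker was left out of its list's sum. The members and lists were chosen with earlier results of these data known. Alternatives were other filters, scalings, pseudocounts and thresholds, no trend, and leaving out a gene's highest library where its group was known.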

Additional observations from a re-analysis of the deposited data

How the results depend on the processing

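The table gives no value per library, so leaving out each library in turn could not be run. No paired analysis was possible because the table's columns carry no replicate numbers. Quantile normalization moved the median log2 ratio of all genes by 0.14, 0.14 and -0.02 in the 3 comparisons (each BDL day against day 0, then the later against the earlier BDL day, in this order throughout). Of the 11 calls, those of Tnfsf13 on both days, Tnfsfm13, Ltb, Fas and Tnfrsf18 passed under every alternative of filter, scaling and trend tried (Tnfrsf18 is not among the genes with a mean of at least 10). Ltb and Tnfrsf18 also passed without their highest library, Tnfrsf18 on a BDL day 14 mean under the lowest level resolved. The highest library of Tnfsf13, Tnfsfm13 and Fas could not be placed in a group and was not left out. The calls of Cd27, Tnfrsf13c, Ltbr and Tnfrsf13b were lost under 1 or more alternatives, always with the same direction. With a pseudocount of 1, for which no test was run, the falls of genes near the lowest level were smaller. The log2 ratio of Tnfrsf18 on BDL day 14 was then -2.31 in place of -5.07. Those of Tnfrsf13c were -1.99 on BDL day 3 and -1.93 on BDL day 14, in place of -4.17 and -3.88. Calls were gained under quantile normalization by Tnfrsf14 on both days and Tnfrsf26 on BDL day 3, and with no filter by Fas on BDL day 3 (adjusted p = 0.0499).

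Members past 2-fold numbered 15, 12 and 8, and 23, 19 and 16 with no filter and 7, 4 and 5 at a mean of at least 10, where fewer genes are counted. Signalling genes past 2-fold numbered 6, 10 and 6, and 12, 21 and 14 past 1.5-fold. On BDL day 3 they were 10 with no filter and 3 at a mean of at least 10. Members passing the moderated test numbered 3, 6 and 2. On BDL day 3 they were 6 with no filter, 1 at a mean of at least 10, 1 without the highest library of each gene and 1 at an adjusted p of 0.01. For BDL day 14 they were 3 at a mean of at least 10 and 3 at an adjusted p of 0.01. Between the BDL days they were 1 without the highest library, 1 with no trend and 0 at an adjusted p of 0.01 (limma), where 6 had an unadjusted p under 0.05. Signalling genes passing numbered 0, 6 and 2. They were 1 on BDL day 3 with no filter and 1 under quantile normalization, 2 on BDL day 14 at an adjusted p of 0.01, and between the BDL days 1 with no trend and 1 at an adjusted p of 0.01. The cause of these shifts was not tested.

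Ratios that turned sign had no call. Under quantile normalization they were Tnfrsf1a (-0.075 on BDL day 3, -0.12 on BDL day 14), Tnfrsf9 (1.41 on BDL day 3), Tnfsf9 (0.35 on BDL day 14) and, between the BDL days, Tnfrsf13c (-0.019), Tnfrsf14 (-0.041) and Tnfrsf19 (-0.16). Tnfrsf21 turned to 0.025 on BDL day 14 under median-ratio scaling. Tnfrsf9 turned to -1.02 against day 0 and -0.63 between the BDL days without its highest library.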
